A study of Mus musculus with 8 samples.

Results

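The ALG genes (asparagine-linked glycosylation) encode the enzymes that build, 1 sugar at a time, the lipid-linked precursor of protein N-glycans. The 10 described here are Alg1, Alg2, Alg3, Alg5, Alg6, Alg8, Alg9, Alg11, Alg12 and Alg14, found by symbol among the 24063 genes of the deposited tables, with the counts and TPM of their 14 transcripts summed by gene in each of 8 libraries. The members were chosen by name with earlier results of the same libraries known, and in those results Alg6 was among the genes that differed between treatments. Their treatment differences are therefore given as a description, and no p-value is given for the list.

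RNA was sequenced from mouse kidney tubuloids, which are tubules formed in Matrigel out of kidney fragments, in 4 libraries treated with doxycycline (DOX) and 4 treated with the vehicle dimethyl sulfoxide (DMSO). All 8 carried the genotype Pkd2fl/fl Pax8rtTA TetOCre mTmG: floxed Pkd2, a reverse tetracycline transactivator under the Pax8 promoter, a Cre recombinase that the transactivator switches on in the presence of DOX, and a fluorescent reporter of recombination, so the DMSO controls held every allele and Cre could act only in Pax8-expressing epithelial cells. The labels put the kidneys at postnatal day 7 to 10, whereas the study's methods named a younger range. Treatment began on day 3 of culture and lasted 3 days, and RNA was taken on day 7. The labels tied no library to an animal, so the p-values below measure the spread between these samples, which may be partly technical.

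N-glycan assembly starts on the cytosolic face of the endoplasmic reticulum, where N-acetylglucosamine and then mannose are added, starting from dolichol phosphate. The intermediate is flipped into the lumen, where further mannoses and finally glucoses are added from dolichol-linked sugars. The finished oligosaccharide is then moved as a block onto asparagines of nascent proteins by the oligosaccharyltransferase, and the terminal glucoses are trimmed during folding. Polycystin-1 and polycystin-2 are themselves glycoproteins, and in humans mutations in ALG8 and ALG9 have been linked to kidney and liver cysts.

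The promoters of the pair of luminal glucosyltransferases, Alg6 and Alg8, are shown because these were the members whose DOX and DMSO libraries did not overlap in normalised count. The sequences are from the RefSeq promoter table on GRCm38.p6, 5′ to 3′ on the gene's strand, cut so that the last base is the one before the gene's start. Capitals mark the GC box letters GGGCGG, searched on both strands, which read CCGCCC where the match is on the opposite strand.
Alg6, chr4:99715380-99715595, plus strand: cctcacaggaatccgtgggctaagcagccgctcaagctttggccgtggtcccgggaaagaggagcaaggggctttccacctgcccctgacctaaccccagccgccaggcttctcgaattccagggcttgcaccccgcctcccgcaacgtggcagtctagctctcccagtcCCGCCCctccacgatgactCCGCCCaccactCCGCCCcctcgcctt
Alg8, chr7:97371367-97371566, plus strand: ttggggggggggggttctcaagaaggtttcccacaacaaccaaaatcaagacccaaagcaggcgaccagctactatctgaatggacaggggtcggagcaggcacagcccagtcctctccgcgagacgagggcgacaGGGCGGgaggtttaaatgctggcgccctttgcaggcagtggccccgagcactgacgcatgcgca
The Alg6 stretch of 216 bases was 66.2% G and C and held 3 GC boxes, and the Alg8 stretch of 200 bases was 61% G and C and held 1. Over the table's full window of 250 bases before to 50 after the start, GGGCGG was present in 6 of the 8 member promoters found and in 35.7% of all 32851 promoters. CCAAT was present in 4 of 8 members (37.4% of all), CCGGAAG in 3 (8.86%), CACGTG in 1 (7.15%), TATAAA in 1 (13.6%) and TGACGTCA in 0 (1.79%). Alg2 and Alg11 had no entry.

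A single member promoter, that of Alg12, held the layout of the endoplasmic reticulum stress response element, in which the letters CCAAT and CCACG (in capitals) stand 9 bases apart. This site is shown because the layout is rare: 0.119% of all promoters held it on either strand.
Alg12, chr15:88819520-88819538, minus strand: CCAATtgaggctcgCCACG
The site lay 202 to 220 bases before the gene's start, and its CCAAT is also counted among the CCAAT matches above. Each of these matches describes letters in a window and does not show that a factor binds there.

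Libraries are named by treatment and by the number in their titles. Summed counts ranged from 63922677 to 102716313 per library, of which the 10 genes took 22215 to 44459, and each member was counted in every library. DMSO 20 and DOX 19 had counts for only 13243 and 13599 genes, against 17054 to 17903 in the other 6, so fits were repeated without them. Without both, the member log2 fold changes that moved by over 1.5 times were those of Alg8 (0.38 to 0.19), Alg3 (0.12 to 0.34), Alg5 (-0.15 to -0.04), Alg11 (-0.02 to -0.17), Alg14 (0.09 to 0.05) and Alg12 (-0.21 to 0.06). Pkd2, the targeted gene, had normalised counts of 6128, 4813, 6039 and 7538 in DMSO 3, 5, 15 and 20, and of 4136, 5072, 5952 and 4624 in DOX 9, 12, 19 and 21. The groups overlapped (log2 fold change -0.31, or -0.20 without DMSO 20, SE 0.215, DESeq2 adjusted p = 0.999), and the count covers bases outside the floxed exons and cells without Pax8. Of the marker lists, 6 of 6 renal epithelial genes (Cdh1, Epcam, Pax8, Krt8, Krt18, Cldn4) were counted in every library, with a summed level of 450 to 1867 TPM in DMSO and 576 to 1296 in DOX. Stromal genes summed to 257 to 2522 and 490 to 824 TPM, endothelial genes to 22.2 to 64.7 and 28.9 to 161, macrophage genes to 3.98 to 28.7 and 0.00680 to 10.9, collecting duct genes to 9.63 to 61.7 and 15.8 to 29.3, and proximal tubule genes to 5.37 to 23.7 and 7.24 to 11.1. Of these markers, Aqp2, Aqp3, Elf5, Lrp2, Cubn, Slc34a1, Pecam1, Cdh5, Kdr, Csf1r and Adgre1 averaged under 1 TPM. All other markers on the lists averaged at least 1 TPM. No marker was called, and the part of cell composition in the results below was not tested. In such bulk samples fewer cells of a type and less RNA per cell cannot be told apart.

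Levels of the 10 genes were compared per transcript length, in TPM, the authors' measure scaled by transcript length and library total. Alg5, which makes the dolichol-linked glucose used in the lumen, had the highest level, with 91.5 ± 20.0 TPM (SD, n = 8). Alg2 (40.0 ± 14.5 TPM) and Alg11 (39.9 ± 5.00), both cytosolic mannosyltransferases, followed. Alg14, the membrane anchor of the second N-acetylglucosamine transferase, stood at 34.9 ± 4.91 TPM and the luminal mannosyltransferase Alg9 at 34.4 ± 5.35. Alg3, which adds the first luminal mannose, stood at 29.5 ± 6.19 TPM and Alg1, which adds the first mannose of all, at 29.1 ± 6.63. The lowest levels were those of Alg8 (20.1 ± 4.19 TPM), the luminal mannosyltransferase Alg12 (20.0 ± 7.35) and Alg6 (6.50 ± 2.44), which adds the first glucose. The mean level of Alg5 was thus the highest and that of Alg6 the lowest of the 10, and this held in the DMSO means and in the DOX means taken alone, an alternative chosen after the data were seen.

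Neighbours in this order were compared by the ratio of their TPM within each library, with an exact two-sided sign-flip permutation test and Benjamini-Hochberg adjustment over 9 pairs. The order was taken from the same 8 libraries, so these p-values do not account for how the pairs were chosen. Alg5 exceeded Alg2 in 8 of 8 libraries (exact adjusted p = 0.0352), by 1.23 ± 0.50 on the log2 scale (SD, n = 8). Alg12 exceeded Alg6 in 8 of 8 (exact adjusted p = 0.0352), by 1.63 ± 0.64. Alg1 exceeded Alg8 in 7 of 8 (exact adjusted p = 0.0469), by 0.53 ± 0.27. The order and these ratios pool both treatments. Within treatments, as values without a test computed after the data were seen, the log2 ratio of Alg5 to Alg2 was 1.59 ± 0.24 in DMSO and 0.88 ± 0.44 in DOX, that of Alg12 to Alg6 was 1.28 ± 0.56 and 1.98 ± 0.58, and that of Alg1 to Alg8 was 0.53 ± 0.14 and 0.52 ± 0.38 (SD, n = 4 each). In the DMSO means Alg12 (21.1 TPM) stood above Alg8 (17.0 TPM), so Alg8 was the neighbour of Alg6 there. The other 6 neighbouring pairs did not differ beyond their spread (exact adjusted p = 0.105 to 0.875), so the middle of the order, from Alg2 down to Alg1, is not resolved into single ranks. With 8 libraries the smallest possible unadjusted p was 0.0078, and with 7 or fewer it is larger, so repeats without a library could rarely pass.

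The levels of Alg9, Alg11 and Alg12 depend on how transcripts are combined. Alg11 has 3 transcripts with mean counts of 2802, 2794 and 2802 per library, Alg9 has 2 with 2030 and 2026, and Alg12 has 2 with 849 and 779, so reads shared by the isoforms appear once for each. Using a single transcript per gene, that of highest mean count, put Alg11 at 13.2 ± 1.65 TPM, Alg9 at 17.0 ± 2.64 and Alg12 at 9.63 ± 3.50, and moved Alg11 from the third to the eighth place. On that basis Alg5 over Alg2, Alg1 over Alg8 and Alg9 over Alg11 passed (exact permutation test, adjusted p = 0.0469 each), whereas Alg12 over Alg6 did not (exact adjusted p = 0.0703). Here too the order was taken from the libraries tested. The remaining 7 genes have 1 transcript each.

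**Figure D1:**
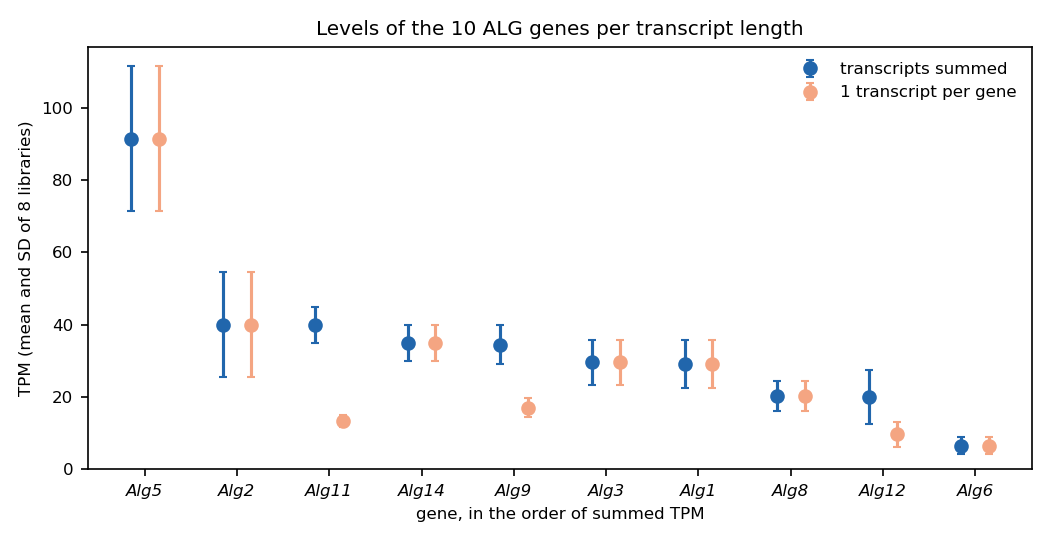
Mean level in TPM of each of the 10 ALG genes over 8 libraries (bars, SD), in the order of summed TPM, with all transcripts summed (blue) and with 1 transcript per gene (orange). Alg5 stands at 91.5 TPM and Alg6 at 6.50 TPM by either count, and Alg11, Alg9 and Alg12 move down when 1 transcript is taken.

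DOX was compared with DMSO to ask which transcripts differed after DOX treatment. No DOX-treated library lacked Cre or the floxed Pkd2, so effects of the drug, of Cre and of Pkd2 loss cannot be told apart. Calls required a DESeq2 adjusted p no higher than 0.05 together with a 1.5-fold or larger change, and levels are normalised counts, that is, counts divided by the library's size factor. Of 17011 genes tested, 25 were called, which is 0.147%, with 14 higher and 11 lower in DOX. Among the 10 ALG genes 1 was called, Alg6, which was lower. The same gene was the single member under an unadjusted p of 0.05, where 5.28% of all genes lay. The fitted log2 fold change was above 0 in 5 members and below 0 in 5 (44.4% of all genes lay above 0), from -0.89 to 0.54, with a median of 0.03 against -0.07 over all genes tested (from -0.01 without DOX 9 to 0.09 without DOX 19 for the members). The DOX libraries lay all above the DMSO libraries in 1 member (1.66% of all genes), all below in 1 (1.09%), and overlapped in 8 (16543 of the 17011 genes). Since the list was drawn up with this contrast known, nothing is read from these counts.

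**Figure D2:**
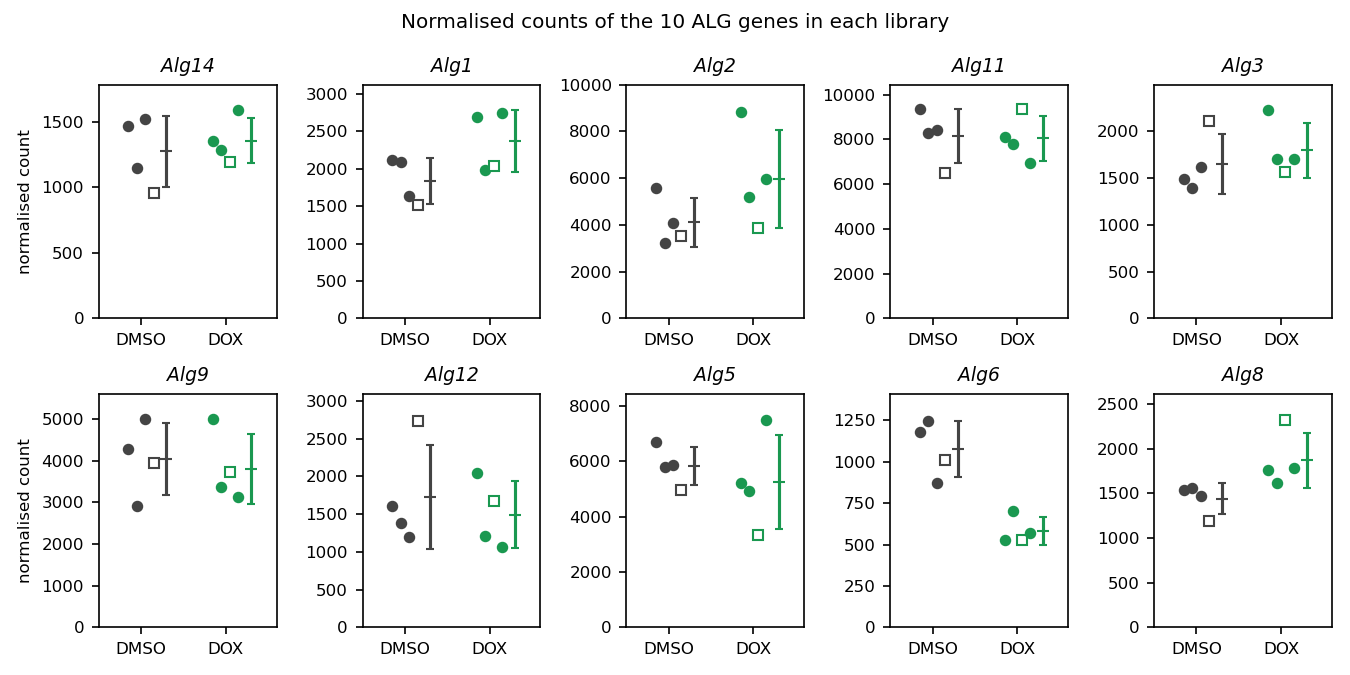
Normalised count of each ALG gene in each library (points), with mean and SD beside them (n = 4 per group), DMSO in grey and DOX in green; panels run from cytosolic to luminal steps, and open squares are DMSO 20 and DOX 19, the libraries with few genes detected. Alg6 is lower in all 4 DOX libraries and Alg8 higher, and the groups overlap in the other 8 panels.

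Among the cytosolic enzymes none was called. Alg14 had normalised counts of 955 to 1521 in DMSO and 1189 to 1590 in DOX, and Alg11 of 6503 to 9364 and 6934 to 9361. These nearly coinciding ranges went with log2 fold changes of 0.09 (95% interval -0.36 to 0.54) and -0.02 (-0.38 to 0.35).

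Alg1 was counted at 2113, 2093, 1631 and 1517 in DMSO 3, 5, 15 and 20, and at 2693, 1988, 2031 and 2750 in DOX 9, 12, 19 and 21 (normalised counts). DOX 9 and DOX 21 were above every DMSO library, while the other DOX libraries fell within the DMSO range. The log2 fold change was 0.36 (95% interval -0.07 to 0.80, DESeq2 adjusted p = 0.999). Alg2 ran from 3229 to 5590 in DMSO and reached 8803 in DOX 9, with 5208, 3854 and 5981 in DOX 12, 19 and 21. It had the highest fitted log2 fold change of the 10, 0.54 (95% interval -0.11 to 1.19, DESeq2 adjusted p = 0.999), and the groups overlapped. Without DOX 9 that value was 0.290, and Alg8 (0.404) and Alg1 (0.294) then stood above it. Per length, Alg2 was the fifth of 10 in the DMSO means (31.2 ± 5.15 TPM, n = 4) and the second in the DOX means (48.7 ± 16.2 TPM, n = 4). The summed level of Alg1, Alg2, Alg11 and Alg14 was 128 ± 14.2 TPM in DMSO and 160 ± 21.0 in DOX (SD, n = 4 each), with DOX 19 at 131 and DMSO 5 at 140, so the groups overlapped.

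The luminal mannosyltransferases also overlapped between treatments. Alg3 normalised counts were 1386 to 2105 under DMSO and 1559 to 2222 under DOX (log2 fold change 0.12, 95% interval -0.31 to 0.56), with fitted values from 0.0036 without DOX 9 to 0.26 without DMSO 20. Those of Alg9 were 2911 to 4991 and 3119 to 4997 (-0.08, -0.59 to 0.42), and it overlaps a long noncoding RNA gene whose reads cannot be separated from its own without strand. Alg12 had the widest spread of these relative to its mean (coefficient of variation 34.2%, against 20.3% for Alg9 and 17.1% for Alg3), with 1602, 1389, 1200 and 2732 in DMSO 3, 5, 15 and 20 and 2041, 1205, 1668 and 1064 in DOX 9, 12, 19 and 21. DMSO 20, a library with few genes detected, gave the highest Alg12 count of all 8, and the log2 fold change of -0.21 (SE 0.369) became 0.10 without it and 0.06 without both such libraries. The summed level of Alg3, Alg9 and Alg12 was 82.9 ± 18.2 TPM in DMSO and 84.8 ± 15.9 TPM in DOX (SD, n = 4 each).

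The dolichol-phosphate glucosyltransferase Alg5 was counted at 4974 to 6683 in DMSO, and in DOX at both the lowest and the highest value of all, 3353 in DOX 19 and 7478 in DOX 21 (normalised counts). Its log2 fold change was -0.15 (95% interval -0.71 to 0.40), and 0.02 without DOX 19.

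Alg6 and Alg8, which add the first and the second glucose, lay on opposite sides. Alg6 had normalised counts of 1178, 1246, 871 and 1013 in DMSO 3, 5, 15 and 20. In DOX 9, 12, 19 and 21 it had 525, 704, 528 and 569. Every DOX library was below every DMSO library, with means of 1077 ± 169 in DMSO and 581 ± 84.1 in DOX (SD, n = 4 each). Alg6 was thus 1.85-fold lower in DOX, with a fitted log2 fold change of -0.89 (SE 0.211, 95% interval -1.30 to -0.48, DESeq2 adjusted p = 0.0234). The direction was the same under all 16 alternatives, with log2 fold changes from -0.995 to -0.81, but the call was not. Neither edgeR (adjusted p = 0.999) nor limma-voom (adjusted p = 0.9995) called it. edgeR called 0 of 15562 genes (0%) and limma-voom called 0; before adjustment, 476 and 478 lay under p 0.05 in these tools. In DESeq2 the adjusted p was 0.292 without DMSO 3, 0.214 without DMSO 5, 0.194 without DOX 9, 0.217 without DOX 19, 0.117 without DOX 21, 0.156 without both low-detection libraries and 0.0885 when every library had to hold 10 counts. On the TPM scale the Alg6 groups overlapped, with 5.89 to 10.8 in DMSO and 3.96 to 6.54 in DOX, DOX 12 being above DMSO 15.

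Alg8 had normalised counts of 1545, 1560, 1471 and 1187 in DMSO 3, 5, 15 and 20. In DOX 9, 12, 19 and 21 it had 1762, 1614, 2325 and 1784. All DOX libraries were above all DMSO libraries, DOX 12 by a small margin over DMSO 5, and the means were 1441 ± 174 and 1871 ± 312 (SD, n = 4 each). The log2 fold change of 0.38 (SE 0.197, 95% interval -0.01 to 0.76) corresponds to a 1.30-fold higher level and did not pass (DESeq2 adjusted p = 0.967). Without DMSO 20 and DOX 19 it was 0.19 (DESeq2 adjusted p = 0.926). Per length the groups also stood apart, at 15.2 to 21.05 TPM in DMSO and 21.08 to 27.2 TPM in DOX.

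The ratio of Alg8 to Alg6 within a library, examined after their values had been seen and given without a test, was 2.04, 1.95, 2.63 and 1.82 in DMSO 3, 5, 15 and 20. It was 5.23, 3.57, 6.85 and 4.88 in DOX 9, 12, 19 and 21. The means were 2.11 ± 0.357 and 5.13 ± 1.35 (TPM over TPM, SD, n = 4 each), so there was more Alg8 than Alg6 in each library and the ratios of the groups did not overlap. In normalised count Alg6 was lower and Alg8 higher in every DOX library, so this separation was fixed by the choice of the pair. The summed level of both was similar, with 25.3 ± 4.55 TPM in DMSO and 28.0 ± 2.97 in DOX.

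**Figure D3:**
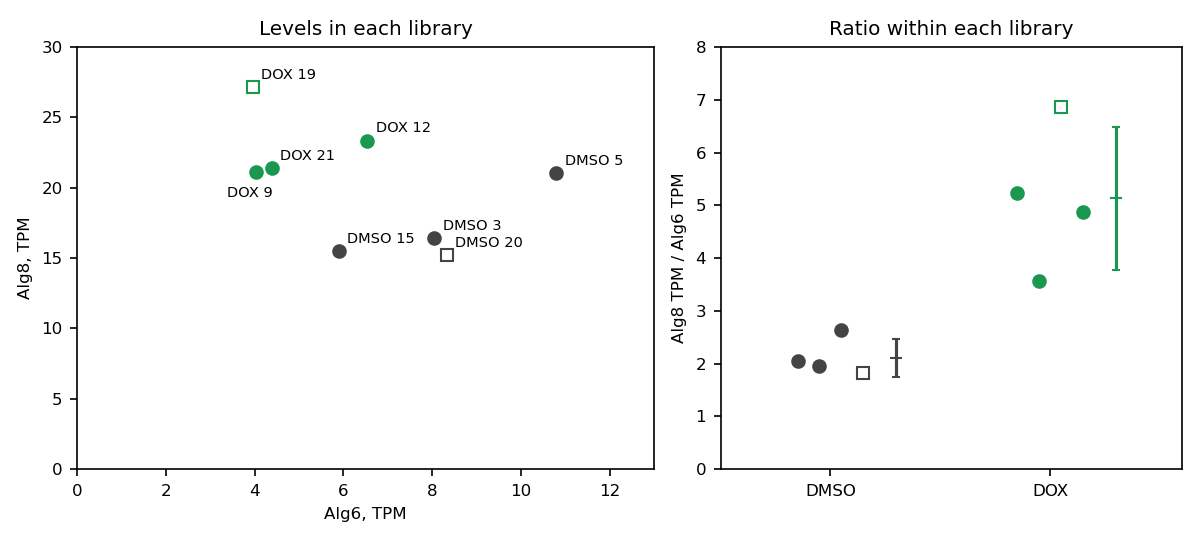
Left, level of Alg8 against level of Alg6 in each library, both in TPM, DMSO in grey and DOX in green, open squares being the libraries with few genes detected. Right, the ratio Alg8 over Alg6 in each library with mean and SD (n = 4 per group); the DMSO ratios lie between 1.82 and 2.63 and the DOX ratios between 3.57 and 6.85. The normalised counts of each gene already separate the groups, in opposite directions, so the ratios had to separate too.

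3 further enzymes complete the assembly series. Dpagt1, which starts it, was counted at 1736 to 2616 in DMSO and 1993 to 3166 in DOX (normalised counts, log2 fold change 0.30, 95% interval -0.18 to 0.77, or 0.17 without DOX 9). Alg10b, which adds the last glucose, was counted at 289 to 485 and 359 to 615 (0.13, -0.46 to 0.72). Neither was separated by treatment. Alg13, the catalytic partner of Alg14, had normalised counts of 1297, 1799, 1222 and 2355 in DMSO 3, 5, 15 and 20 and of 577, 891, 772 and 1064 in DOX 9, 12, 19 and 21. All 4 DOX libraries were below all DMSO libraries, with means of 826 ± 205 and 1668 ± 524 (SD, n = 4 each), which corresponds to a log2 fold change of -1.01 (SE 0.325, 95% interval -1.65 to -0.38). It was not called (DESeq2 adjusted p = 0.280), nor under any of the 16 alternatives, in which the log2 fold change ran from -1.30 to -0.75 and the adjusted p from 0.0994 upward. Both of its transcripts had the same order of groups, one with means of 920 in DMSO and 374 in DOX and the other with 748 and 452 (normalised counts). Alg13 also overlaps a long noncoding RNA gene and a pseudogene. The ratio of Alg14 to Alg13, likewise examined after the values were seen, was 2.21 ± 1.15 in DMSO and 4.60 ± 1.07 in DOX (TPM over TPM, SD, n = 4 each), and its ranges of 0.946 to 3.44 and 3.93 to 6.21 did not overlap. Alg13 alone already separated the groups in normalised count, so this is not a further, independent result.

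**Figure D4:**
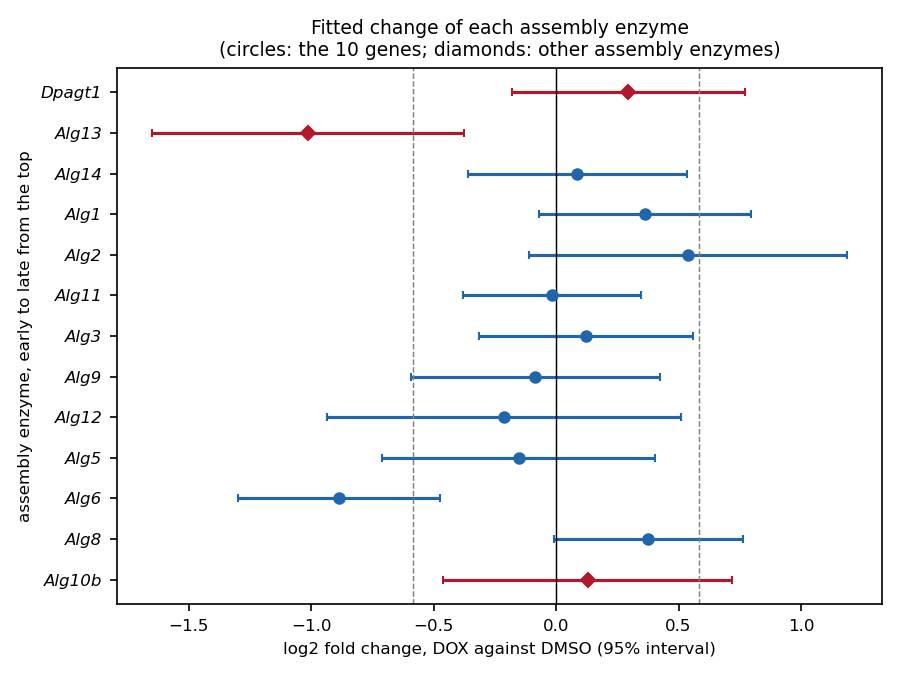
Fitted log2 fold change of DOX against DMSO with its 95% interval (DESeq2) for the 10 ALG genes (circles) and for Dpagt1, Alg13 and Alg10b (diamonds), from the earliest step at the top to the last; dashed lines mark 1.5-fold. The intervals of Alg6 (-1.30 to -0.48) and Alg13 (-1.65 to -0.38) lie below 0, and the other 11 include it.

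Genes around the assembly enzymes were described by 3 lists, to be read beside all genes tested, of which 0.147% were called, 5.28% had an unadjusted p under 0.05 and 44.4% lay above 0, with a median of -0.07. Of 18 other assembly and sugar-donor genes, 0 were called, 2 had an unadjusted DESeq2 p under 0.05 (Alg13 and Dolk), 13 lay above 0 and the median log2 fold change was 0.09. Dolk, the kinase that makes dolichol phosphate, had the highest of these with all libraries (0.41, SE 0.198, DESeq2 adjusted p = 0.885), and Dpm2 or Dhdds the highest in 5 of the 8 repeats without 1 library. Of 12 oligosaccharyltransferase genes, 0 were called, 1 had an unadjusted p under 0.05, 7 lay above 0 and the median was 0.09. With all libraries the catalytic subunit Stt3b had the highest log2 fold change (0.50, SE 0.242, DESeq2 adjusted p = 0.900) and the small subunit Tmem258 the lowest (-0.24, SE 0.242). Neither rank held throughout: Stt3a, the other catalytic subunit, was the highest in 5 of the 8 repeats without 1 library, and Tmem258, at -0.34 (without DMSO 20) to -0.087 (without DMSO 15), was not the lowest in 6 of them. The counts and medians of both lists depended on single libraries (counted after the data were seen). For the 18 other assembly genes the number above 0 ran from 9 to 14 and the median from 0.01 (without DOX 9) to 0.18 (without DMSO 3). For the 12 oligosaccharyltransferase genes the number ran from 5 to 9 and the median from -0.07 (without DMSO 20) to 0.27 (without DOX 19).

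Of 12 genes for glycan trimming and the calnexin cycle, 0 were called and 1 had an unadjusted p under 0.05, and the median log2 fold change was 0.22. All 12 fitted values lay above 0, where 44.4% of all tested genes did, but without DOX 9 only 7 of the 12 did and the median was 0.07, and 10 to 12 did without any other single library, again counted after the data were seen. Ngly1, the cytosolic enzyme that removes N-glycans from misfolded proteins, had the highest, with 4307, 4427, 4874 and 2849 in DMSO 3, 5, 15 and 20 and 4483, 5695, 7013 and 10577 in DOX 9, 12, 19 and 21 (normalised counts). DOX 9 fell within the DMSO range, and the fitted change was 0.75 on the log2 scale (SE 0.337, DESeq2 adjusted p = 0.830), or 0.48 without DOX 21, where Uggt1 was the highest. Edem3, a mannosidase of the degradation branch, had the lowest with all libraries, 0.03 (SE 0.381), and its value ran from -0.20 to 0.39 in the repeats without 1 library. In none of the 12 did the DOX libraries all lie on one side of the DMSO libraries. Over all genes tested, 1.66% lay all above and 1.09% all below, so 0 of 12 is near these shares. edgeR and limma-voom each called 0 of all 15562 genes they tested, so 0 calls in the 3 lists was certain there.

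The genes with the profile closest to that of Alg6, out of 11454 counted in every library, were Lurap1l, Pdzd9 and Sqle. Their mean absolute difference from Alg6 in centred log2 normalised count over 8 libraries was 0.105, 0.114 and 0.163. The nearest other ALG gene, Alg5, stood at 0.371. It was the closest among far fewer genes than 11454, so nothing is read from the larger distance. Sqle encodes squalene epoxidase of sterol synthesis, and had means of 7479 ± 1109 in DMSO and 4487 ± 1083 in DOX (normalised counts, SD, n = 4 each), with DOX 12 at the lower end of the DMSO range. Lurap1l had 3214 ± 480 and 1771 ± 114, and Pdzd9 252 ± 41.5 and 129 ± 27.7. Since these genes were picked for likeness to Alg6, their lower level in DOX is part of the choice.

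On the mouse build GRCm38 (mm10), the 10 genes lie on 7 chromosomes, and Alg2 and Alg6 share chromosome 4, at 47469833 to 47474367 on the minus strand and 99715596 to 99763460 on the plus strand. Alg8 covers 97371567 to 97392159 of chromosome 7 on the plus strand. Alg5 and Alg14 share chromosome 3, at 54735539 to 54749795 and 121291712 to 121363096, and Alg1 and Alg3 share chromosome 16, at 5233621 to 5244909 and 20605458 to 20610761. Alg6 and Alg9 have 15 exons each, the most of the 10, and Alg2 has 2, the fewest. Counts cover whole annotated transcripts, coding and untranslated exons together. Alg1 overlaps Eef2kmt and Alg14 a long noncoding RNA gene, and because the strand setting of the counting was not stated, reads in the shared stretches cannot be assigned to one gene.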

How the data were processed

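Poly-A selected RNA of 4 DOX and 4 DMSO tubuloid libraries was made into cDNA with SMART-Seq v4. The submitters' processing notes name STAR, featureCounts, DESeq2 and the build mm10 (GRCm38); alignment and counting settings, strand and tool versions are not given in the sources used here. The authors deposited a whole-number read count for each RefSeq transcript, without normalisation. The deposited FPKM, in which the authors divided counts by length and depth, served only to derive transcript lengths. The deposited TPM is the authors' rescaling of it to a fixed total, used for levels between genes.

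Counts were summed by gene symbol, and isoforms that share reads are then counted more than once. DOX was compared with DMSO over all genes with DESeq2 1.42.0 (Wald test, R 4.3.3), as in the study's methods, with no covariate, independent filtering at alpha 0.1, the Cook's distance filter and unshrunken log2 fold changes. edgeR 4.0.16 (quasi-likelihood) and limma 3.58.1 (voom) were alternatives, as were TMM size factors, a minimum of 10 counts in every library, no independent filtering, no Cook's filter, 1 transcript per gene, leaving out DMSO 20 and DOX 19, and leaving out each library in turn. The fits were also run on simulated counts, with changes larger than that of any ALG gene here. That run does not show how the fits behave at the changes reported. All 28 pairs of libraries differed beyond sampling noise (chi-square over its degrees of freedom 302 to 978), and each library was 1 sample.

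The members and lists were chosen with earlier results of these data known. The genes named were the 10 members, Dpagt1, Alg13, Alg10b and Pkd2, any called gene and the highest and lowest fold change of each further list, and the 3 genes, counted in every library at a mean of at least 100 normalised counts and on no list, whose profile was closest to that of the member with the largest fold change. The number of libraries, 4 a group, limits precision, and marker lists are summed TPM. The lists were the remaining assembly and donor genes, oligosaccharyltransferase subunits, trimming and calnexin cycle genes, and markers of 6 cell types. Adgre1 is spelled Emr1 in the tables. Promoter sequences are RefSeq's on GRCm38.p6, and for 6 of 8 the 30 bases that end the window were found at the start of a GENCODE transcript on the stated strand.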

Additional observations from a re-analysis of the deposited data

Results flagged for a closer look

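Of 44 groups of 4 libraries tested for 22 named genes, 3 held a library far from the other 3 by the gap relative to the group's range on the log2 scale, against 2.2 by chance at about 1 in 20. Alg10b was counted at 289 in DMSO 20 and at 472 to 485 in the other DMSO libraries (normalised counts, gap over range 0.946). Edem3 was counted at 4570 in DOX 19 and at 2538 to 2796 in the other DOX libraries (0.835). DMSO 20 and DOX 19 are the libraries with few genes detected, and the part of that in these values was not tested. Sqle was counted at 6111 in DOX 12 and at 3914 to 3989 in the other DOX libraries (0.958).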

How the results depend on the processing

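Over all genes, 25 calls became 0 with edgeR and 0 with limma-voom, 16 with at least 10 counts in every library (14 shared), 48 without the Cook's filter, 51 without DMSO 20 and DOX 19 (9 shared, 21 higher and 30 lower), and 14 (without DMSO 3) to 75 (without DMSO 15) when 1 library was left out. The single ALG call, Alg6, became 0 with edgeR, limma-voom, the 10-count minimum and without DMSO 20 and DOX 19, and 0 to 1 when 1 library was left out; the cause was not tested. The 3 resolved neighbours in level became 0 without both of those libraries and 0 to 3 without 1, where fewer libraries raise the smallest possible p. Without DMSO 20 and DOX 19 the log2 fold changes of Alg12 (0.064) and Alg10b (-0.029) changed sign. Leaving out 1 library changed the sign of values near 0, with log2 fold changes of -0.37 to 0.019 for Alg5, -0.24 to 0.038 for Alg9, -0.11 to 0.058 for Alg11, -0.40 to 0.095 for Alg12, -0.030 to 0.19 for Alg14, -0.023 to 0.24 for Alg10b and -0.20 to 0.39 for Edem3. The 3 further lists had 0 calls under each of the 16 alternatives. Over the 22 named genes and 16 alternatives, 322 values kept direction and side of the threshold, 16 changed sign and 13 lost the call, 9 of Alg6 and 4 of Lurap1l (edgeR, limma-voom, without DOX 19 and without both low-detection libraries), while Sqle was called without DOX 12. No paired analysis was possible because the library numbers in the titles are not shared between the groups.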
